A study of Oryctolagus cuniculus with 6 samples.

Results

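The 10 genes described here carry glucose into the cell and convert it to lactate. They are SLC2A1, HK1, HK2, PFKP, PFKFB3, ALDOA, PGK1, ENO1, PKM and LDHA, chosen by name from the 22190 genes of the table, and all 10 had a row and passed the filter on low counts. The choice was made with earlier results of these data known. RNA-seq was performed on cells that grew out of rabbit limbal explants, which the study calls primary limbal stem cells (LSCs). LSCs are the stem cells at the corneal edge that renew the corneal epithelium. By flow cytometry the study found differentiated cells, positive for K3, in cultures of both groups, with fewer in the preconditioned group. The libraries therefore do not stand for stem cells alone. The fresh group held 3 libraries from fresh corneal tissue. The preconditioned group held 3 libraries from corneas kept in liquid nitrogen for 7 days in a cryomedium that held IL-1β, a cytokine of inflammation, at 10 ng/mL, before thawing and explant culture. By the study's methods the explants grew in keratinocyte medium, and how long the cells were kept before RNA extraction is not given in the sources used here. Strain, age and sex of the rabbits, and whether each library came from its own animal, are not given either, and p values measure only the spread between these libraries, which may be technical. Cryostorage and the cytokine always came together and cannot be told apart.

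Glycolysis splits glucose into pyruvate in the cytosol, and lactate dehydrogenase reduces pyruvate to lactate so that the pathway can go on. The corneal epithelium has no blood vessels, takes up glucose mainly through the transporter GLUT1, which SLC2A1 encodes, and releases much of its carbon as lactate. Several steps have isoenzymes from different genes, such as the hexokinases HK1 and HK2, the phosphofructokinases PFKP, PFKL and PFKM, and the lactate dehydrogenase subunits LDHA and LDHB. Which isoenzyme a cell uses sets how a step is regulated.

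The libraries held 31952352 to 34327534 counts on genes. On the first principal component, which held 50.4% of the variance, preconditioned replicate 1 (8.13) lay between the fresh libraries (−53.1 to −41.1) and the other preconditioned libraries (58.3 and 70.4). Of the epithelial markers, KRT5, the keratin of basal epithelial cells, was measured at 7337 to 11740 counts per 1000000 counts on genes after TMM scaling (CPM) over all libraries. TP63, a limbal stem cell factor, was measured at 246, 226 and 239 CPM in the fresh and 183, 122 and 112 CPM in the preconditioned libraries, without overlap (log2 difference −0.77, adjusted p = 0.059 from edgeR). The limbal keratin KRT15 was low, at 0.988 to 9.71 CPM, and GPHA2, a marker of quiescent limbal stem cells, was at most 1.53 CPM in the fresh libraries and had no count in the preconditioned libraries. Of the other markers on the epithelial and corneal lists, EPCAM and ITGB4 were higher in every preconditioned than in any fresh library (log2 difference 0.50 and 0.63, adjusted p = 0.060 and 0.071 from edgeR), PAX6 and KRT3 overlapped (0.81 and −1.21, adjusted p = 0.11 and 0.30), and none of either list was called. KRT14, KRT12, ALDH3A1 and ABCG2 have no row under those symbols. The summed level of 11 stromal fibroblast markers ranged from 531 to 1147 CPM over fresh and from 1303 to 2328 CPM over preconditioned libraries, and its part in the results below was not tested. Without COL1A1, the single called gene of that list, the ranges were 474 to 1039 CPM and 786 to 1636 CPM and overlapped. The immune list summed to 103 to 136 CPM in fresh and 125 to 321 CPM in preconditioned libraries, and the conjunctival list to 1042 to 1522 and 1282 to 1977 CPM. The endothelial list summed to at most 13.1 CPM in any library and the melanocyte list to at most 2.70 CPM.

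Preconditioned was compared with fresh for every gene by edgeR's quasi-likelihood test, and a gene was called if its adjusted p reached 0.05 and its log2 fold change (log2FC) was 1 or more in size. Of the 10 genes, 1 was called, SLC2A1, which was higher in the preconditioned group. Over all 15029 tested genes, 2.29% were called, 1.08% as higher and 1.20% as lower. At any log2FC, 2 of the 10 passed the adjusted p (SLC2A1 higher, PFKP lower), against 5.08% of all tested genes (2.88% higher, 2.20% lower). The preconditioned libraries lay wholly above the fresh libraries for 5 genes (SLC2A1, HK2, ALDOA, PGK1 and ENO1) and wholly below them for HK1 and PFKP. The 7 genes compare with 36.7% of all tested genes, of which 17.9% lay above and 18.8% below. An unadjusted p of 0.05 or less in edgeR was reached by 6 of the 10, against 30.6% of all tested genes. The median log2FC of the 10 genes was 0.38, beside 0.01 over all tested genes. The 10 genes and the gene lists below were chosen with earlier results of these data known, so the shares of all tested genes are not an independent comparison. A bulk library cannot tell fewer cells that express a gene from less RNA per cell.

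These counts moved with the scaling, the tool and the libraries. With library size alone as the scaling, 1 of the 10 genes was called, against 3.76% of all tested genes, and the medians were 0.21 for the 10 genes and −0.16 for all. HK2 and ENO1 then overlapped, so that 5 of the 10 genes did not (3 higher, 2 lower), against 38.8% of all tested genes (10.5% higher, 28.3% lower). DESeq2 called SLC2A1 of the 10, against 7.78% of its tested genes, and gave SLC2A1, HK1, PFKP, ALDOA and PGK1 an adjusted p of 0.05 or less, against 19.1%. Without preconditioned replicate 1 the edgeR test did the same for these 5 genes, against 25.2% of all tested genes, and called SLC2A1, against 9.99%. Without any 1 of the other 5 libraries it called 14 to 72 of all tested genes and none of the 10. LDHA, PFKFB3 and PGK1 each have a second row of the same product, described below. With these rows merged, 3 of the 10 passed the adjusted p in edgeR (2 higher, 1 lower), against 5.08% of all tested genes before merging. The merged LDHA and PFKFB3 then also lay wholly above the fresh libraries after TMM scaling.

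**Figure D1:**
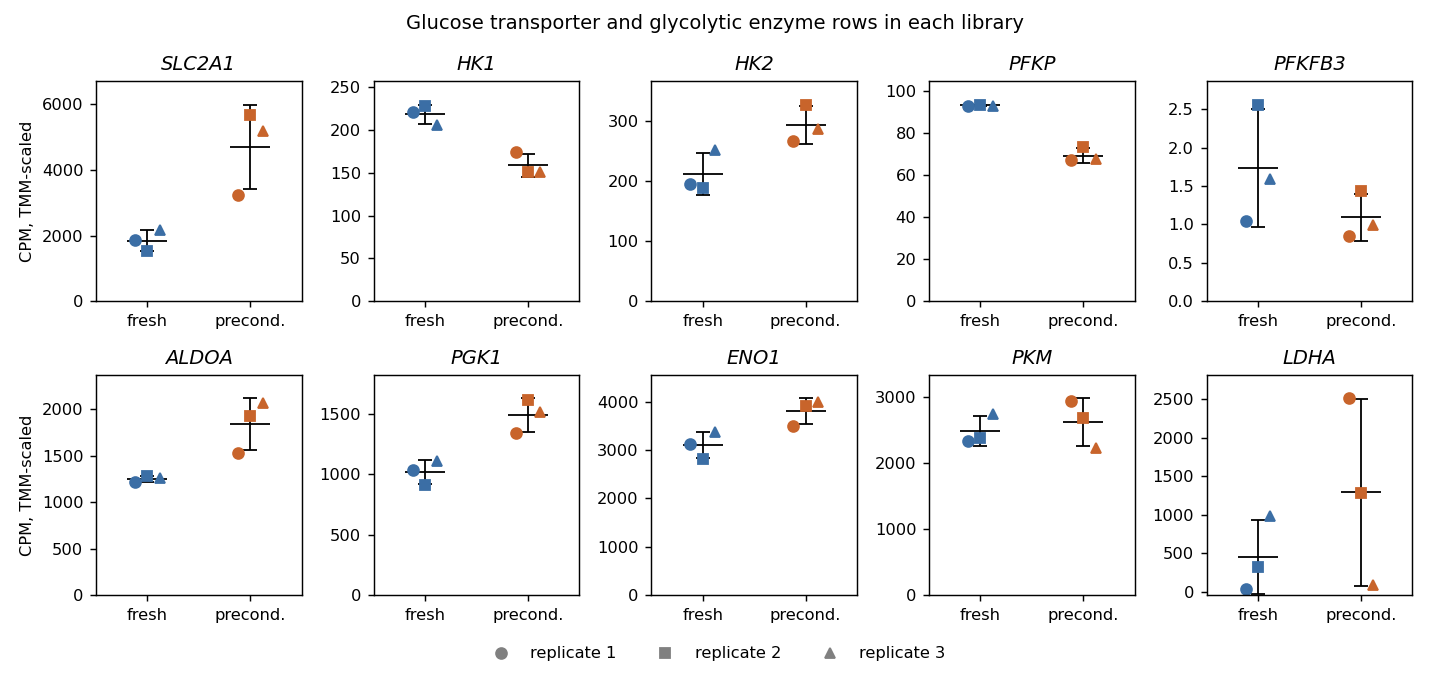
Level of each of the 10 genes in the 6 libraries, in CPM scaled by TMM on axes that include 0. Points are libraries, with the mean and SD of each group (n = 3) in black. SLC2A1 reaches 2157 CPM in fresh libraries and starts at 3239 CPM in preconditioned libraries, whereas LDHA spreads from 39.1 to 2513 CPM within and across the groups.

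Of the 10 genes, the glucose transporter SLC2A1 had the largest difference that passed the test. SLC2A1 was expressed at 1857, 1535 and 2157 CPM in the 3 fresh libraries and at 3239, 5686 and 5172 CPM in the 3 preconditioned libraries. Every preconditioned library was above every fresh library, and preconditioned replicate 1 was the lowest of its group. SLC2A1 rose from 1850 ± 311 to 4699 ± 1290 CPM (SD, n = 3 each), which is 2.54-fold (log2FC 1.35, standard error (SE) 0.24, adjusted p = 0.038 from edgeR with Benjamini-Hochberg adjustment). Without fresh replicate 1, 2 or 3 the adjusted p from edgeR was 0.12, 0.14 and 0.084. Without preconditioned replicate 2 or 3 it was 0.14 and 0.090, and without preconditioned replicate 1 it was 0.0040, with log2FC of 1.19 to 1.54 over these 6 fits.

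No other glucose transporter approached this level. Of the 10 other transporter genes listed, 7 had a row, 6 were tested and none was called, against 2.29% of all tested genes, with 0 at an unadjusted p of 0.05 or less in edgeR (30.6% of all tested genes) and 0 called by DESeq2 (7.78%). SLC5A1, which couples glucose entry to sodium, was measured at 7.80, 17.8 and 12.4 CPM in the fresh libraries and 10.6, 4.09 and 3.72 CPM in the preconditioned libraries, so that the groups overlapped (log2FC −1.05, adjusted p = 0.19 from edgeR). Without preconditioned replicate 1 it was the single transporter of this list called, as lower (log2FC −1.71, adjusted p = 0.023 from edgeR), against 9.99% of all tested genes called in that fit. No row carries the symbol SLC2A3, and the row LOC100125981, described as like that transporter, ranged from 21.5 to 95.2 CPM without separating the groups. By FPKM, the fragments per gene length and library size, SLC2A1 made up 98.1% to 99.7% of the sum of these 2 rows in every library.

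The genes whose profile over the 6 libraries came closest to that of SLC2A1 were BEST1, NDRG4 and MAP3K13, out of 8316 genes with a symbol and a mean of at least 10 CPM. The root mean square difference of their centred log2 CPM from SLC2A1 was 0.090, 0.11 and 0.11. BEST1 encodes a chloride channel known from the retinal pigment epithelium. Its mean CPM was 879 ± 117 over the fresh and 2490 ± 675 over the preconditioned libraries (SD, n = 3 each), a difference that its choice by likeness to SLC2A1 fixed. In all, 38 genes lay within 0.25 of SLC2A1.

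The 2 hexokinases trap glucose in the cell as glucose 6-phosphate, and their log2FC had opposite signs. HK1, the form found in most cells, was measured at 221, 228 and 206 CPM in the fresh libraries and at 174, 151 and 151 CPM in the preconditioned libraries. HK2, the form that insulin and hypoxia regulate in many tissues, was measured at 196, 189 and 252 CPM in the fresh and 266, 327 and 287 CPM in the preconditioned libraries. Neither pair of groups overlapped, and neither gene passed the test. HK1 had a log2FC of −0.46 (SE 0.11, adjusted p = 0.054 from edgeR) and HK2 one of 0.47 (SE 0.15, adjusted p = 0.094). The pseudogene rows LOC103351328 and LOC127488764, described as like hexokinase 1, held 3.87 to 7.03 and 3.47 to 11.2 CPM and were also lower in all preconditioned libraries.

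The balance between the hexokinases was compared within each library, where scaling between libraries has no effect. HK2 made up 37.9%, 36.3% and 45.7% of the summed FPKM of HK1 and HK2 in the fresh libraries. In the preconditioned libraries its share was 51.3%, 59.9% and 56.7%. All 3 preconditioned shares were above all 3 fresh shares, with means of 40.0% ± 5.04 and 56.0% ± 4.33 (SD, n = 3 each). The exact 2-sided permutation test gave p = 0.1, the smallest that 3 libraries against 3 allow (adjusted p = 0.25 over the 5 shares tested). When the hexokinase 1 pseudogene rows were counted with HK1, the HK2 share was 35.5%, 33.98% and 42.6% in the fresh and 49.6%, 57.8% and 54.1% in the preconditioned libraries. The groups again did not overlap, and HK2 was then just below HK1 in preconditioned replicate 1.

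**Figure D2:**
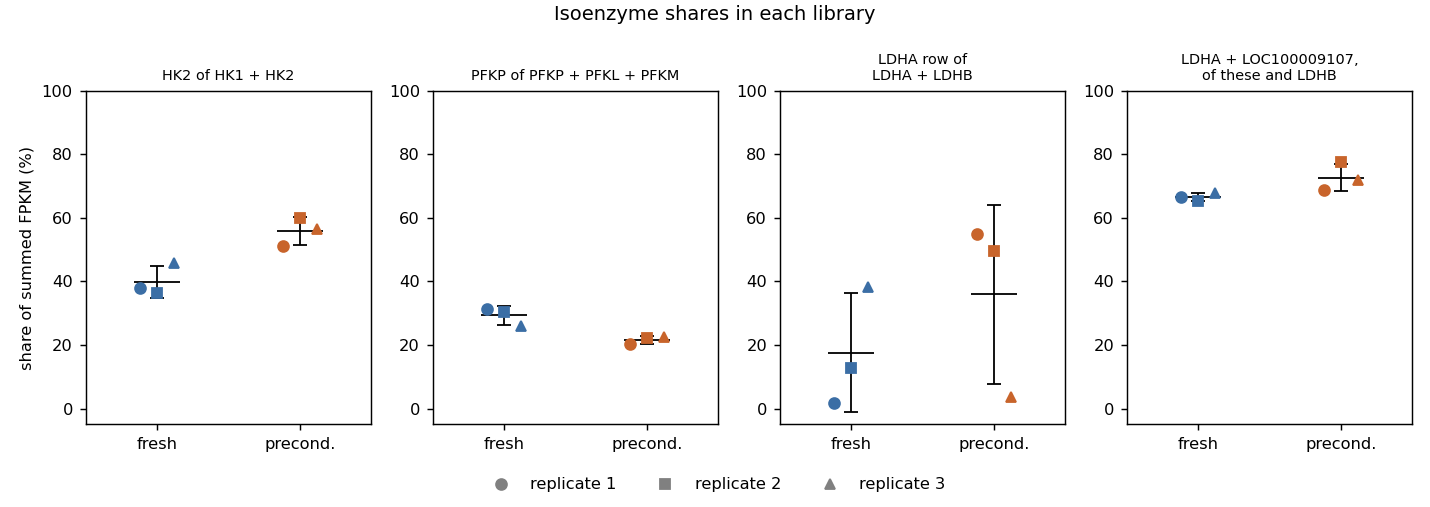
Share of an isoenzyme in the summed FPKM of its step, in percent, for each library, with the mean and SD of each group (n = 3) in black. The HK2 share is 36.3% to 45.7% in fresh and 51.3% to 59.9% in preconditioned libraries, the PFKP share is lower in the preconditioned group, and the LDHA share narrows from a range of 1.70% to 54.9% to one of 65.3% to 77.5% once LOC100009107 is counted with LDHA.

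Phosphofructokinase commits sugar to glycolysis. PFKP, its platelet form, was measured at 93.0, 93.7 and 93.2 CPM in the fresh libraries and at 67.3, 73.4 and 67.7 CPM in the preconditioned libraries. The groups did not overlap, with means of 93.3 ± 0.369 and 69.5 ± 3.45 CPM (SD, n = 3 each). PFKP fell by 0.43 on the log2 scale (SE 0.094, adjusted p = 0.0487 from edgeR) and did not reach the log2FC cutoff of 1. Its adjusted p from edgeR was 0.12 to 0.17 without any 1 library other than preconditioned replicate 1, and 0.025 without that library.

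Neither of the other forms passed the test. PFKL, the liver form, had a log2FC of 0.19 (adjusted p = 0.37 from edgeR) and PFKM, the muscle form, one of −0.39 (adjusted p = 0.12). PFKP made up 31.5%, 30.5% and 26.0% of the FPKM of the 3 forms in the fresh libraries and 20.2%, 22.1% and 22.4% in the preconditioned libraries. The groups did not overlap (exact 2-sided permutation test, p = 0.1, adjusted p = 0.25). PFKL was the main form, at 74.5 ± 11.9 FPKM in the fresh and 75.8 ± 5.43 FPKM in the preconditioned group (SD, n = 3 each).

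PFKFB3 makes fructose 2,6-bisphosphate, a strong activator of phosphofructokinase, and its product was spread over 2 rows. The row named PFKFB3 held 28 to 91 counts per library, or 1.04, 2.56 and 1.59 CPM in the fresh and 0.852, 1.44 and 0.988 CPM in the preconditioned libraries (log2FC −0.66, SE 0.45, adjusted p = 0.35 from edgeR). The row LOC100350534, described as the same enzyme, held 224, 237 and 271 CPM in the fresh libraries and 352, 431 and 357 CPM in the preconditioned libraries. The named row overlapped between the groups, whereas the LOC row did not and rose by 0.64 on the log2 scale (SE 0.13, adjusted p = 0.045 from edgeR). The named row held 0.241% to 1.07% of the sum of both, so that the sum followed the LOC row (log2FC 0.63, adjusted p = 0.046 from edgeR). In the RefSeq gene table of the assembly mOryCun1.1 both identifiers are protein-coding genes, and only the first carries the symbol. Without any 1 library other than preconditioned replicate 1, the adjusted p of the LOC row was 0.090 to 0.16. Reads of rows with the same product could be split between them in the counting, so each row alone is uncertain. Its relatives PFKFB2 and PFKFB4 had log2FC of 0.02 and 0.33 (adjusted p = 0.94 and 0.20).

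Of the 10 genes, 4 encode enzymes from aldolase to pyruvate kinase (ALDOA, PGK1, ENO1 and PKM), with log2FC of 0.07 to 0.56, and none of the 4 passed the test. ALDOA, the aldolase that splits fructose 1,6-bisphosphate, was measured at 1215, 1279 and 1259 CPM in the fresh and 1526, 1926 and 2064 CPM in the preconditioned libraries. PGK1, which makes the first ATP of the pathway, was measured at 1037, 912 and 1112 CPM in the fresh and 1341, 1614 and 1510 CPM in the preconditioned libraries. For both genes every preconditioned library was above every fresh library. ALDOA had a log2FC of 0.56 (SE 0.14, adjusted p = 0.060 from edgeR) and PGK1 one of 0.54 (SE 0.13, adjusted p = 0.055). A second row described as phosphoglycerate kinase 1, LOC100348124, held few of the counts of both rows, of which the named row took 98.1% to 98.6%.

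ENO1, the enolase of most tissues, was measured at 3121, 2822 and 3364 CPM in the fresh and 3488, 3917 and 3982 CPM in the preconditioned libraries. The groups did not overlap, and the test was not passed, with a log2FC of 0.29 (SE 0.13, adjusted p = 0.17 from edgeR). PKM, the pyruvate kinase that makes pyruvate and ATP, was measured at 2336, 2391 and 2751 CPM in the fresh and 2946, 2694 and 2234 CPM in the preconditioned libraries. Its groups overlapped, and its log2FC of 0.07 (SE 0.15, adjusted p = 0.76 from edgeR) turned to −0.09 with library size alone. ALDOA and ENO1 made up nearly all FPKM of their steps in every library, at 98.0% to 98.6% of ALDOA and ALDOC and 99.5% to 99.8% of ENO1 and ENO2.

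The steps between these enzymes were examined from a list of 20 other glycolysis genes, of which 18 had a row and 14 were tested. In that list edgeR and DESeq2 each called 1 gene, TPI1, which was higher, against 2.29% and 7.78% of all tested genes. The list had 5 genes at an unadjusted p of 0.05 or less in edgeR, against 30.6% of all tested genes. TPI1, the triosephosphate isomerase that feeds both products of aldolase into the pathway, was measured at 680, 730 and 840 CPM in the fresh and 1209, 1748 and 1764 CPM in the preconditioned libraries. All preconditioned libraries were above all fresh libraries, a rise of 2.098-fold (log2FC 1.07, SE 0.18, adjusted p = 0.036 from edgeR). With library size alone the log2FC was 0.90 (adjusted p = 0.034) and missed the fold change cutoff. Its adjusted p was 0.080 to 0.14 without any 1 library other than preconditioned replicate 1, and 0.0040 without that library.

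GAPDH, which makes the NADH that lactate dehydrogenase uses up again, was measured at 4780, 6475 and 5692 CPM in the fresh and 7967, 10087 and 10126 CPM in the preconditioned libraries. The groups did not overlap, and the log2FC was 0.73 (SE 0.17, adjusted p = 0.052 from edgeR). GPI and PGAM1, the isomerase and mutase of the pathway, had log2FC of 0.26 and 0.27 (adjusted p = 0.23 and 0.17), and ALDOC and ENO2, the forms named for brain, had 0.64 and 0.24 (adjusted p = 0.10 and 0.78). The median log2FC of the 14 tested genes was 0.25, beside 0.38 for the 10 genes and 0.01 for all tested genes.

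**Figure D3:**
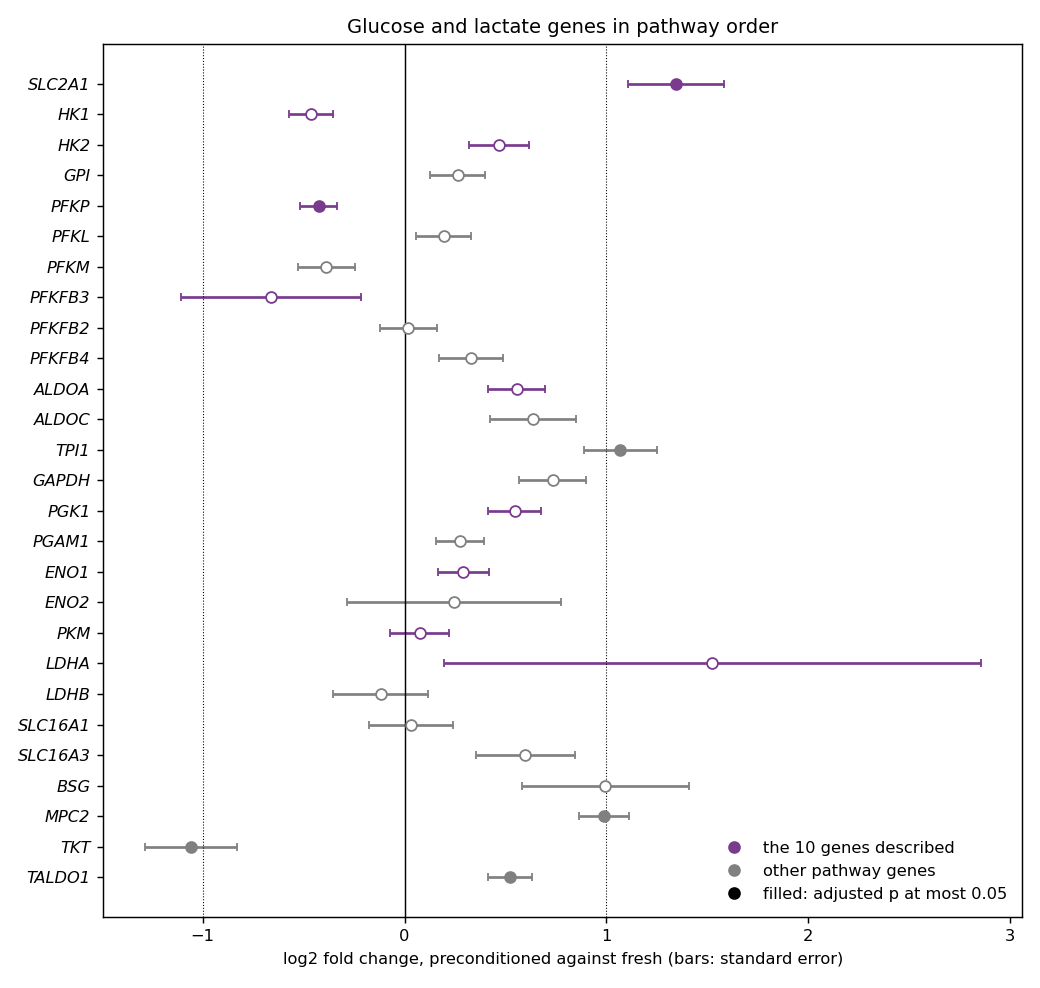
Log2FC of the preconditioned against the fresh group, with its standard error, for genes in pathway order from uptake to lactate export, followed by mitochondrial pyruvate entry and the pentose phosphate pathway. Filled points have an adjusted p of at most 0.05 in edgeR, and dotted lines mark the fold change cutoff. Of the filled points, SLC2A1 and TPI1 lie beyond 1 and TKT below −1, and LDHA has the widest bar, with a standard error of 1.33.

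LDHA makes the subunit of lactate dehydrogenase that favours lactate formation, and the row that carries its symbol was the least even of the 10 named rows across libraries. The row named LDHA was measured at 39.1, 324 and 982 CPM in the fresh libraries and at 2513, 1275 and 82.0 CPM in the preconditioned libraries. The highest library was 64.2 times the lowest, both groups held low and high libraries, and the log2FC of 1.53 had a standard error of 1.33 (adjusted p = 0.47 from edgeR). None of the 8316 genes compared had a profile within 0.25 of it, and the nearest was TNFAIP6 at a root mean square difference of 0.97.

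A second row, LOC100009107, carries the same description. It was measured at 4162, 3582 and 2209 CPM in the fresh libraries and at 1909, 2993 and 5232 CPM in the preconditioned libraries. Its 2 lowest libraries, fresh replicate 3 and preconditioned replicate 1, were among the 3 highest for the LDHA row, and its 2 highest libraries, fresh replicate 1 and preconditioned replicate 3, were the 2 lowest for that row. The LDHA row took 0.931%, 8.29% and 30.8% of the counts of both rows in the fresh libraries and 56.8%, 29.9% and 1.54% in the preconditioned libraries.

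The sum of both rows was far more even. It was 4201, 3906 and 3191 CPM in the fresh libraries and 4422, 4268 and 5314 CPM in the preconditioned libraries, with the highest library at 1.67 times the lowest. The coefficient of variation over the fresh libraries was 108% for the LDHA row, 30.2% for the LOC row and 13.8% for the sum, and over the preconditioned libraries it was 94.2%, 50.2% and 12.1%. After TMM scaling all preconditioned sums were above all fresh sums, with means of 3766 ± 520 and 4668 ± 564 CPM (SD, n = 3 each), and the difference did not pass the test (log2FC 0.31, SE 0.16, adjusted p = 0.22 from edgeR). By FPKM, which uses library size alone, the sums overlapped, at 2387, 2219 and 1794 FPKM in the fresh and 2211, 2059 and 2720 FPKM in the preconditioned libraries. In the mOryCun1.1 gene table the identifier of the LOC row carries the symbol LDHA, and the identifier of the row named LDHA was not found there, while those of the other 9 genes were.

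**Figure D4:**
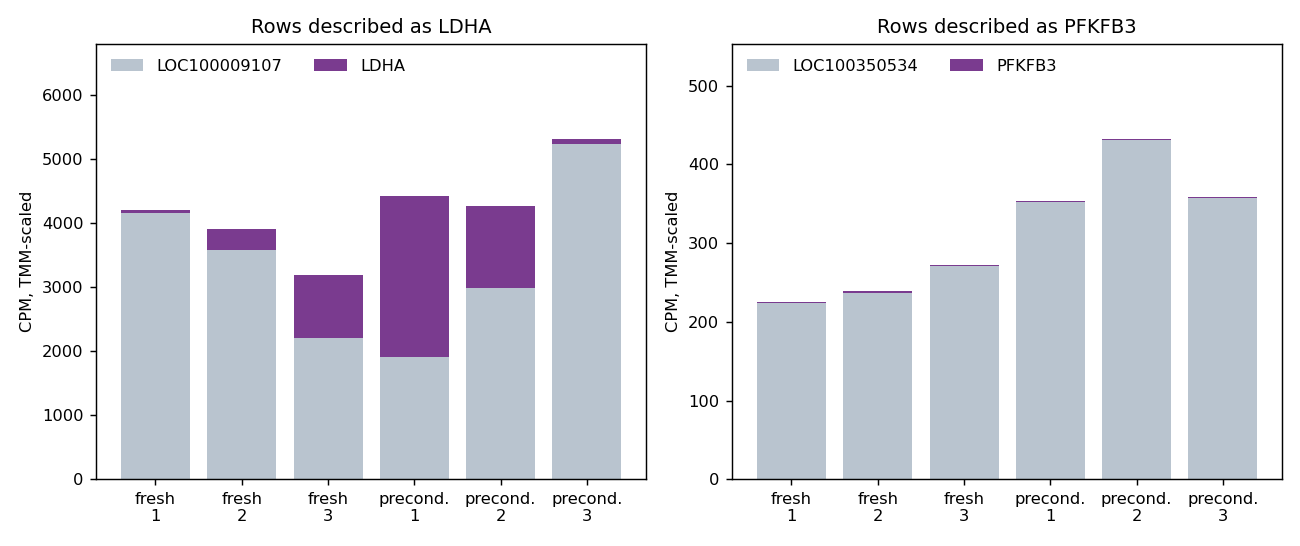
Stacked CPM of the rows that share a product, for lactate dehydrogenase A on the left and PFKFB3 on the right, in each of the 6 libraries. The purple part, the row that carries the gene's symbol, takes 0.931% to 56.8% of the LDHA sum without following the groups and at most 1.07% of the PFKFB3 sum.

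LDHB, the subunit that favours pyruvate formation, was measured at 1612, 1573 and 1129 CPM in the fresh and 1469, 926 and 1581 CPM in the preconditioned libraries, which overlapped (log2FC −0.12, adjusted p = 0.76 from edgeR). From the named rows alone, LDHA made up 1.70% to 38.2% of the FPKM of LDHA and LDHB over fresh and 3.55% to 54.9% over preconditioned libraries (exact 2-sided permutation test, p = 0.3, adjusted p = 0.50). When LOC100009107 was counted with LDHA, the LDHA share was 66.5%, 65.3% and 67.8% in the fresh and 68.8%, 77.5% and 71.9% in the preconditioned libraries. These groups did not overlap, with a difference of 6.19 percentage points (exact 2-sided permutation test, p = 0.1).

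Lactate leaves the cell through monocarboxylate transporters and their chaperone basigin. SLC16A1, the transporter MCT1, was the most abundant, at 492 to 746 CPM in the fresh and 491 to 711 CPM in the preconditioned libraries (log2FC 0.03, adjusted p = 0.93 from edgeR). SLC16A3, the lactate exporter MCT4, was measured at 81.0, 74.8 and 126 CPM in the fresh and 122, 181 and 124 CPM in the preconditioned libraries, and BSG, which encodes basigin, at 56.0, 54.3 and 146 CPM and at 136, 217 and 158 CPM. For both genes fresh replicate 3 reached into the preconditioned range. Their log2FC were 0.60 (adjusted p = 0.15) and 0.99 (adjusted p = 0.16, both from edgeR), and a further row described as like basigin, LOC127486300, held 100 to 185 CPM. Of the 10 lactate genes listed, 9 had a row, 7 were tested and none was called by edgeR or DESeq2, against 2.29% and 7.78% of all tested genes. Among the 7, 2 had an unadjusted p of 0.05 or less in edgeR, against 30.6% of all tested genes.

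Levels of different genes were compared per length, by FPKM, which is scaled by library size. In the fresh group the order was the LDHA rows together (2133 ± 306 FPKM), ENO1 (1635 ± 147), PKM (994 ± 94.6), SLC2A1 (824 ± 141), ALDOA (694 ± 20.5), PGK1 (588 ± 59.4), HK1 (57.2 ± 2.76), the PFKFB3 rows together (52.2 ± 5.49), HK2 (38.3 ± 6.44) and PFKP (33.2 ± 0.241), each with its SD over 3 libraries. Of the neighbours in this order, PKM and SLC2A1, SLC2A1 and ALDOA, and HK1 and the PFKFB3 rows had overlapping ranges. In the preconditioned group SLC2A1 (1854 ± 472 FPKM) stood beside ENO1 (1778 ± 105) with overlapping ranges. By mean FPKM, SLC2A1 was at rank 83 of 22190 genes in the fresh and at rank 28 in the preconditioned group. The named LDHA row alone ranked 296 and 136, and LOC100009107 ranked 24 and 35.

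The pentose phosphate pathway branches off before phosphofructokinase and makes NADPH and ribose from glucose 6-phosphate. TKT, the transketolase, which is abundant in the corneal epithelium, was measured at 1472, 1474 and 1045 CPM in the fresh and 657, 468 and 792 CPM in the preconditioned libraries. It fell by 1.06 on the log2 scale (SE 0.23, adjusted p = 0.0477 from edgeR) and was the single called gene of the 7 tested, where 1.20% of all tested genes were called lower. Its adjusted p was 0.078 to 0.16 without any 1 library other than preconditioned replicate 1, and 0.036 without that library. TALDO1, the transaldolase, passed the adjusted p as higher, at 224 ± 16.5 and 322 ± 19.0 CPM (SD, n = 3 each, log2FC 0.52, adjusted p = 0.046 from edgeR). Without any 1 library other than preconditioned replicate 1, it was 0.11 to 0.16. The list's median log2FC was −0.07.

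Pyruvate entry into mitochondria and the glycogen and gluconeogenesis genes held no called gene in edgeR among 13 and 10 tested, and none in DESeq2. Over all tested genes 2.29% and 7.78% were called by edgeR and DESeq2. In each list 2 genes had an unadjusted p of 0.05 or less in edgeR, against 30.6% of all tested genes. MPC2, a subunit of the mitochondrial pyruvate carrier, was measured at 45.6, 48.7 and 48.9 CPM in the fresh and 83.0, 92.5 and 108 CPM in the preconditioned libraries. It rose by 0.99 on the log2 scale (SE 0.12, adjusted p = 0.022 from edgeR), just under the fold change cutoff, while MPC1, its partner, had a log2FC of 0.13 (adjusted p = 0.46). PDK1, which shuts pyruvate dehydrogenase, had one of −0.35 (adjusted p = 0.21). UGP2, which makes UDP-glucose for glycogen, passed the adjusted p at 147 ± 14.1 and 285 ± 48.1 CPM (log2FC 0.96, adjusted p = 0.032), and PGM2, a phosphoglucomutase family member, at 49.6 ± 10.5 and 28.3 ± 2.41 CPM (SD, n = 3 each, log2FC −0.81, adjusted p = 0.046). Without any 1 library other than preconditioned replicate 1, the adjusted p was 0.045 to 0.11 for MPC2, 0.078 to 0.14 for UGP2 and 0.095 to 0.15 for PGM2. Without that library edgeR called MPC2 and UGP2 as higher and PDP2 and PYGL as lower, against 9.99% of all tested genes. The lists' median log2FC were 0.05 and −0.19.

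The hypoxia factor HIF-1 drives many glycolytic genes, and its genes and targets were read beside them. HIF1A was measured at 1934, 1470 and 1987 CPM in the fresh and 2176, 2882 and 2318 CPM in the preconditioned libraries (log2FC 0.45, adjusted p = 0.13 from edgeR). Its groups did not overlap after TMM scaling and overlapped with library size alone. TXNIP, which restrains glucose uptake, had a log2FC of −0.32 (adjusted p = 0.37). None of the 17 regulators tested was called by edgeR or DESeq2, against 2.29% and 7.78% of all tested genes. Among the 17, 3 had an unadjusted p of 0.05 or less in edgeR, against 30.6% of all tested genes. Of 17 other HIF targets none was called by edgeR and 1, NDRG1, by DESeq2, against 2.29% and 7.78% of all tested genes. After TMM scaling 8 of the targets lay wholly above and 1 wholly below the fresh libraries, against 17.9% and 18.8% of all tested genes. An unadjusted p of 0.05 in edgeR was reached by 10 of them, against 30.6% of all tested genes. With library size alone 4 of the targets lay above and 3 below, against 10.5% and 28.3% of all tested genes. BNIP3, a mitophagy receptor, passed the adjusted p as higher (log2FC 0.80, adjusted p = 0.048) and DDIT4, an inhibitor of mTORC1, as lower (log2FC −0.88, adjusted p = 0.039). Without any 1 library other than preconditioned replicate 1, these were 0.082 to 0.17 and 0.084 to 0.14, and without that library 2 of the targets, NDRG1 and ERO1A, were called higher, against 9.99% of all tested genes. CA9, a carbonic anhydrase used as a hypoxia marker, was measured at 27.5 to 32.1 CPM in the fresh and 23.6 to 36.4 CPM in the preconditioned libraries (log2FC 0.02, adjusted p = 0.95). Over the 8 lists around the 10 genes, 91 genes were tested, 1 was called higher and 1 lower, a share near the 2.29% of all tested genes. Library size alone gave 0 higher and 2 lower, against 3.76%.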

How the data were processed

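RNA-seq was performed on rabbit primary LSC cultures, with 3 fresh and 3 preconditioned libraries. The authors mapped reads with hisat2, and the deposited read counts come from htseq-count and are not normalized. A second set of deposited values, FPKM, holds these counts by library total and by 1 length per gene. Genome build, annotation and strand setting are not given in the sources used here.

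The analysis of the counts used edgeR 4.0.16 under R 4.3.3 (filterByExpr, 15029 genes kept, TMM scaling, robust quasi-likelihood test, condition as the only factor, Benjamini-Hochberg adjustment over all tested genes). The TMM factors were 1.055, 1.061 and 1.066 in the fresh and 0.965, 0.914 and 0.951 in the preconditioned libraries. TMM scaling thus raised the preconditioned values of every gene relative to the fresh values, compared with library size alone. CPM values use the TMM factors. Standard errors were derived from the F statistic. Isoenzyme shares of FPKM were compared by an exact 2-sided permutation test. With 31952352 counts or more per library, the spread between libraries limits the precision, except for rows with few counts. The alternatives were DESeq2 1.42.0, its size factors, library size alone, other filters, a block for the replicate number, each library left out in turn, limma 3.58.1 on log2(FPKM + 1) and log2(FPKM + 0.1), and no fold change cutoff. The fits were also run on simulated counts, and the outcome is not given here.

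The members and lists were chosen with earlier results of these data known. Named genes are the 10 members, 15 pathway genes set by name, pathway genes whose adjusted p reached 0.05, and the 3 nearest profiles of SLC2A1 and LDHA. SLC5A1, PFKFB2, PFKFB4, MPC1, CA9, NDRG1, ERO1A, PDP2, PYGL, the serine genes and the LOC rows were named after their values were seen, and so was the merging of rows with the same product. SLC2A3 had no row. Of the pathway genes listed at first, 2 are not reported here and were left out of the list counts and the plots.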

Additional observations from a re-analysis of the deposited data

How the results depend on the processing

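Merging rows of the same product was chosen after the data were seen. The number of genes called among the 10 was 1, became 2 with no fold change cutoff and 0 when the replicate number was a block, and was 0 to 1 when each library was left out. Over the pathway lists it was 2, and then 8, 0 and 0 to 9. Over all tested genes it was 344 (163 higher), and then 763 and 30, with 14 to 1546 when each library was left out. The highest counts came without preconditioned replicate 1. DESeq2 called 1190 genes, library size alone 565 (142 higher) and limma on log2(FPKM + 0.1) 590 (141 higher). The cause of these shifts was not tested. Libraries with the same replicate number showed no shared deviation from the group means (r = −0.073, −0.080 and −0.123 across genes), and no library correlated best with its own number. The highest values were 0.263 for fresh 1 with preconditioned 3, 0.157 for fresh 2 with preconditioned 1 and 0.269 for fresh 3 with preconditioned 2, and nothing in the labels ties these libraries. Thus the block rests on a number alone. With it, the log2FC of SLC2A1 was 1.32 (adjusted p = 0.088 from edgeR).

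DESeq2 gave 5 of the 10 genes an adjusted p of at most 0.05 (SLC2A1, HK1, PFKP, ALDOA and PGK1), against 19.1% of its tested genes. The direction turned for PFKFB3 with the rows merged (0.63 in place of −0.66). For PKM, at 0.07, it turned with library size alone (−0.0947), with limma on log2(FPKM + 1) and log2(FPKM + 0.1) (−0.1005 and −0.1006) and without preconditioned replicate 1, in a range of −0.0277 to 0.1804 with a library left out. SLC16A1, at 0.03, turned with library size alone (−0.13) and both limma fits (−0.1276 and −0.1284), and ranged from −0.1065 to 0.2404 with a library left out. ENO2 (−0.1199 to 0.6702) and LDHB (−0.2676 to 0.0866) turned only with a library left out. The differences in the shares of ALDOA (−0.1861 to 0.06085 points) and ENO1 (−0.07074 to 0.1173 points) turned as well, while those of HK2, PFKP and LDHA kept their direction.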

Other observations

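GAPDH is the gene to which the study scaled its qPCR. In the RNA-seq libraries it differed by 0.73 on the log2 scale between the groups, with 0.56 to 0.84 over the 15 alternatives and an adjusted p of 0.0026 (DESeq2) to 0.17. The groups did not overlap.

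The branch from glycolysis to serine was looked at after its values were seen. PHGDH, which draws 3-phosphoglycerate into serine synthesis, was measured at 45.6, 59.9 and 37.4 CPM in the fresh libraries and at 39.3, 11.7 and 11.6 CPM in the preconditioned libraries. PSAT1, the next enzyme, was measured at 215, 245 and 127 CPM and at 79.1, 50.2 and 158 CPM. Neither passed the test (log2FC −1.19 and −1.03, adjusted p = 0.17 for each from edgeR). PSPH, the last enzyme of the branch, was measured at 38.6, 37.8 and 24.0 CPM and at 38.8, 22.4 and 28.3 CPM (log2FC −0.17, adjusted p = 0.69 from edgeR). For PHGDH and PSAT1, 1 preconditioned library lay within the fresh range, replicate 1 for PHGDH and replicate 3 for PSAT1.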
